A study of Mus musculus with 12 samples.

Results

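The mouse aldehyde dehydrogenase family was followed through the postnatal cerebellum in cells sorted for a reporter driven by the promoter of 1 of its genes, Aldh1l1. The 10 members described are Aldh1l1, Aldh1l2, Aldh1a1, Aldh1a2, Aldh2, Aldh3a2, Aldh4a1, Aldh6a1, Aldh7a1 and Aldh9a1. They were taken by gene symbol from a table of 24421 genes, and all 10 passed the filter on low values that left 15464 genes for testing. A further 11 Aldh genes in the table served for comparison.

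Aldh1l1-GFP mice were the source of all libraries, and GFP-positive cells from their cerebellum were sequenced at postnatal day 1 (P1), P7, P14 and P28, with 3 libraries at each age. No other genotype or treatment was used, and all 12 libraries carry the reporter, so that age is the labelled difference between groups. Whether sorting session, gate or library batch also differed between ages is not given in the sources used here. According to the study's methods, mice of both sexes on the C57/BL6J background were used, and the cells were purified by fluorescence-activated sorting. The sources used here do not say whether the libraries of a time point came from separate mice, and p-values measure the spread between these libraries, which may be technical. The time points rest on the sample labels, since the column names of the table all carry P28. Values are normalized counts, meaning the reads of a gene divided by 1 size factor per library. Between 6399499 and 14733985 reads per library fell on genes.

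Aldehyde dehydrogenases oxidize aldehydes to carboxylic acids with NAD or NADP as the electron acceptor, and so clear reactive aldehydes that arise from amino acids, lipids, ethanol and vitamin A. ALDH1L1, also known as 10-formyltetrahydrofolate dehydrogenase, is abundant in astrocytes and is widely used to label them, while ALDH1L2 carries out the same reaction in mitochondria. ALDH1A1 and ALDH1A2 make retinoic acid from retinaldehyde, and the other members studied serve the breakdown of acetaldehyde, fatty aldehydes, proline, valine, lysine and a precursor of carnitine.

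The sequences upstream of the start sites were examined first, because the sorting reporter is driven by the promoter of a member. The search covered RefSeq start sites (GRCm38.p6) of 7 of the 10 members, with 9 start sites in all. The 250 bases before each start were searched on both strands. For 4 members with unlike time courses, 5 windows are shown: Aldh1l1 fell and did not return to its first level, Aldh1a1 rose throughout, Aldh1a2 was lowest at P28, and Aldh6a1 fell and rose again. Capitals mark a CCAAT box (CCAAT, or ATTGG when it lies on the other strand) or a GC box (GGGCGG).
Aldh1l1, chr6:90550543-90550792, plus strand: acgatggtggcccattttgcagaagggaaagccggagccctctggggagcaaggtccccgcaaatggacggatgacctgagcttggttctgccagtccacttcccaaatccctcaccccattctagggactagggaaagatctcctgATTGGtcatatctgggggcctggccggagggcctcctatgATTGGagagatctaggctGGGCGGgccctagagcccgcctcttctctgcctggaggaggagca
Aldh1a1, upstream start, chr19:20492333-20492582, plus strand: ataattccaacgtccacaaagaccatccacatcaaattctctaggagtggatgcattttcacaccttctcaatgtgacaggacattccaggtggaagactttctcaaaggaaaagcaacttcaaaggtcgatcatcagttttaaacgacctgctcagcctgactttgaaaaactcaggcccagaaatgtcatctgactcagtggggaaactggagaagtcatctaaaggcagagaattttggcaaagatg
Aldh1a1, downstream start, chr19:20601718-20601967, plus strand: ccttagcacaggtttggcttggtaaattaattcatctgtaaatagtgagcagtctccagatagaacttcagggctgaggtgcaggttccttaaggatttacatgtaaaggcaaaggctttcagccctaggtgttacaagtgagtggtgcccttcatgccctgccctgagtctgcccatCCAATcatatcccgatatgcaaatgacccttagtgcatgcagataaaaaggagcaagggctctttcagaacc
Aldh1a2, chr9:71215539-71215788, plus strand: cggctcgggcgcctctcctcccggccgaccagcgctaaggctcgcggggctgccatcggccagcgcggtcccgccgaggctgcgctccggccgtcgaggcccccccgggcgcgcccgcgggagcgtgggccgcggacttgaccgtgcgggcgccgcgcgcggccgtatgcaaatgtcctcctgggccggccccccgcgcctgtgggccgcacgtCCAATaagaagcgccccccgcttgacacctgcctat
Aldh6a1, upstream start, chr12:84451025-84451274, minus strand: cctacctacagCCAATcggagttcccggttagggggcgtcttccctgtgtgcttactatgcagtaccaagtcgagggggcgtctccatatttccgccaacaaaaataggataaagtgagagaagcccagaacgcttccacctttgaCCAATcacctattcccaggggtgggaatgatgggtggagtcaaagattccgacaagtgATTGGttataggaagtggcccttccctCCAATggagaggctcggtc

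The Aldh1l1 window held CCAAT boxes at 103 to 99 and at 63 to 59 bases before the start and a GC box at 45 to 40 bases before it. This start, at base 90550793, lies inside the span annotated to the gene (chr6:90486427-90600203, plus strand), and the bases before that span were not searched. Which start the reporter uses is not given in the sources used here. Aldh1l2 and Aldh2 had no start site at hand, and Aldh7a1 was left out of the search because of its chromosome. Of 32851 RefSeq windows of the same length, from which chromosome 18 was not left out, 33.8% hold a CCAAT box. Among the members, such a box was found in at least 1 window of all 7 searched, and in 8 of the 9 windows. The exception was the upstream start of Aldh1a1, in which none of the motifs searched was found. The Aldh6a1 window printed held 4 CCAAT boxes. A GC box was present in the windows of Aldh1l1 and Aldh3a2, against 32.7% of all windows. The letters TATAAA, found in 12.4% of all windows, were in none of the 9, and no matches overlapped. The Aldh1a2 window was the richest in CpG, with 40 CpG dinucleotides and 77.6% G and C, against 7 and 59.6% for Aldh1l1, 1 and 46.4% for the downstream start of Aldh1a1 and medians of 6 and 52.4% over all windows. These matches describe the letters of the windows and are no evidence of a bound factor.

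The 10 members fell into a few time courses. Of these, 7, namely Aldh1l1, Aldh2, Aldh3a2, Aldh4a1, Aldh6a1, Aldh7a1 and Aldh9a1, had their lowest mean at P7, a time point that was the lowest for 23.7% of all genes tested. The highest mean of 6 members was at P28, as was that of 31.1% of all genes. Aldh1a1 rose at every step, Aldh1l2 was highest at P7, and the means of Aldh1a2 went down from P1 to P28. The largest mean over the smallest ranged from 2.10 for Aldh9a1 to 45.6 for Aldh1a1.

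**Figure D1:**
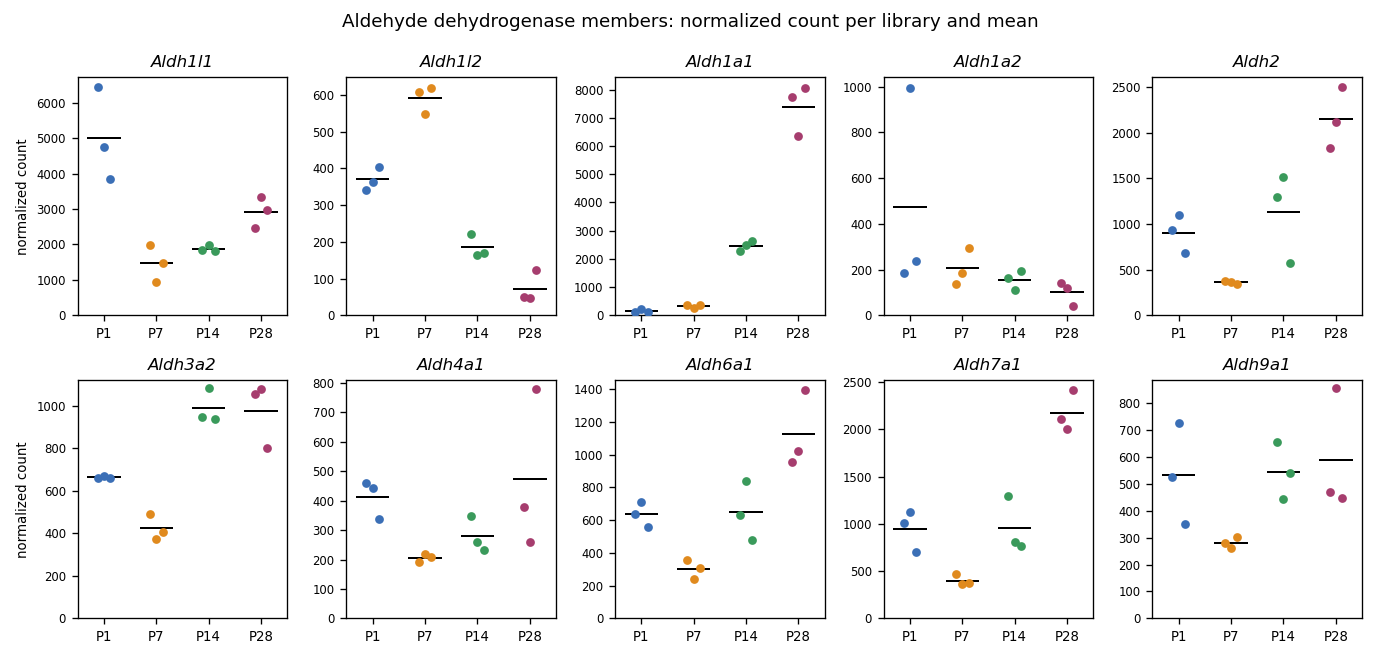
Normalized count (y axis, linear, its own scale in each panel) of the 10 members at P1, P7, P14 and P28 (x axis). Each point is 1 library and each bar the mean of 3; Aldh1a1 climbs to a mean of 7387 at P28, while 7 members are lowest at P7.

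Differences were tested with limma on log2(normalized count + 1), in 1 fit of all 12 libraries, and a gene was called when its p-value, adjusted by the Benjamini-Hochberg method over all genes tested, was under 0.05. Fold changes and their standard errors (SE) are on this scale, which understates the change of low genes. The libraries are of sorted cells in bulk, in which fewer cells of a type and less RNA per cell cannot be told apart.

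From P1 to P7, 5 members fell, 1 rose and 4 were not called. Of all genes tested, 7.7% were called in this step, 4.24% as lower and 3.47% as higher. The members' median log2 fold change was -0.92, against 0.037 for all genes. From P7 to P14, 6 members rose, 1 fell and 3 were not called, where 20.9% of all genes were called, 10.8% as higher and 10% as lower. The median was 1.01 for the members and -0.086 for all genes. From P14 to P28, 4 members rose, 1 fell and 5 were not called, where 14.4% of all genes were called, 5.68% as higher and 8.76% as lower. The median was 0.63 for the members and -0.12 for all genes.

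Between the first and last ages, P1 and P28, 5 members were higher, 3 were lower and 2 were not called, against 34.6% of all genes called, 14.6% as higher and 20% as lower. The libraries of the groups did not overlap for 9, 8 and 6 members in the 3 successive steps and for 8 members from P1 to P28, against 38.3%, 46.1%, 26.1% and 41.9% of all genes tested. Scaling by library totals instead of size factors shifted the median of all genes to 0.095, -0.34, -0.35 and -0.66 in the 4 comparisons. With that scaling, the members called higher and lower were 1 and 4 in the step to P7, 5 and 1 in the step to P14, 2 and 1 in the step to P28, and 3 and 3 over the whole span. The members' median minus that of all genes was -0.96, 1.09, 0.75 and 0.58 with size factors and -0.96, 1.09, 0.74 and 0.57 with library totals.

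**Figure D2:**
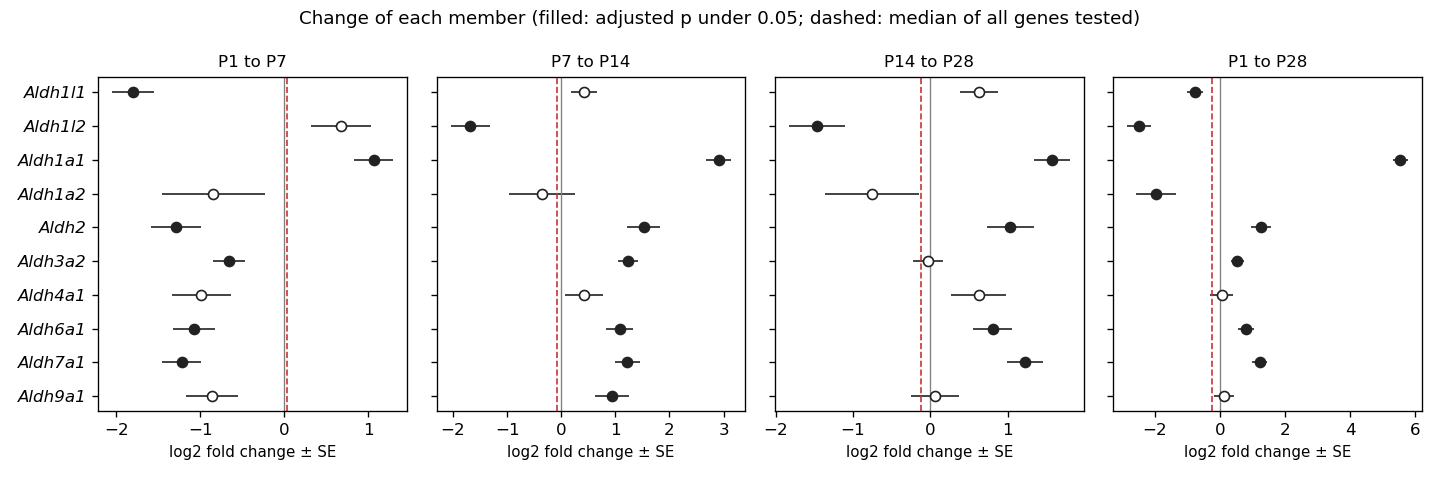
Log2 fold change of each member (x axis, later minus earlier time point) with its SE in the 3 successive steps and from P1 to P28. Filled points have an adjusted p under 0.05 and the dashed line is the median of all genes tested; 5 of 6 filled points lie left of 0 from P1 to P7, and 6 of 7 lie right of 0 from P7 to P14.

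The members of folate metabolism came first, with the gene of the reporter. Aldh1l1 (chr6:90486427-90600203, plus strand, GRCm38) had normalized counts of 6441, 4741 and 3841 in replicates 1 to 3 at P1 and of 1985, 936 and 1488 at P7. At P14 they were 1834, 1978 and 1824, and at P28 they were 2451, 3338 and 2974. All P1 libraries were above all others, the P28 libraries came next, and the P7 and P14 libraries overlapped.

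Aldh1l1 fell 3.49-fold from P1 to P7 (log2 fold change -1.80, SE 0.247, adjusted p = 4.66e-04). The later steps were not called, with log2 fold changes of 0.42 from P7 to P14 (adjusted p = 0.271) and 0.63 from P14 to P28 (adjusted p = 0.105). At P28 it was 1.69-fold lower than at P1 (log2 fold change -0.76, SE 0.247, adjusted p = 0.0286). This last call was lost without replicate 1 (adjusted p = 0.136) or replicate 2 (0.0557) of P1 or replicate 1 of P28 (0.0878). The P14 libraries lay within a factor of 1.08 of each other, against 2.12 at P7. Because the cells were gated on a reporter of the same promoter, these are levels in cells selected for its activity, at whatever gate was set at each age. An antisense transcript, Gm15756, shares 499 of the 4516 exon bases of Aldh1l1.

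The fall in Aldh1l1 was set beside 11 astrocyte markers, a list without Aldh1l1. The P1 libraries had a summed normalized count of 51665 to 63128, those of P7 of 28611 to 51714, those of P14 of 146417 to 186093 and those of P28 of 328858 to 373537. Of these markers, 5 fell and 2 rose from P1 to P7, 10 rose and none fell from P7 to P14, and 8 rose and none fell from P14 to P28. Of all genes tested, 4.24%, 10% and 8.76% were called as lower and 3.47%, 10.8% and 5.68% as higher in these steps. Replicate 2 of P7 had both the lowest marker sum and the lowest Aldh1l1, and without it the fall of Aldh1l1 from P1 to P7 was 1.51 on the log2 scale. This library also had the fewest reads on genes of all libraries (6399499). Of the P7 libraries it had the highest endothelial (6889), choroid plexus and ependymal (126995), fibroblast and mural (19048) and red blood cell (128) marker sums. Its Purkinje cell and interneuron sum (1853) was the lowest of that age. Its oligodendrocyte lineage, granule precursor and neuron, and microglia sums lay between those of the other replicates. Each step of Aldh1l1 was thus measured in samples whose astrocyte marker content also moved, and the part of any of these cells or of depth in the result was not tested.

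Other cell types were represented as well. The 7 oligodendrocyte lineage markers summed to between 4274 and 6447 at P1, 20729 and 31688 at P7, 292099 and 353040 at P14, and 92761 and 131753 at P28. The 7 granule precursor and neuron markers summed to 2180 to 4149 at P1 and to 10223 to 21579 at the later ages. The 6 choroid plexus and ependymal markers were uneven, with sums between 831 and 1934 at P1, 47845 and 126995 at P7, 1097 and 108853 at P14, and 17694 and 181663 at P28. The 5 microglia markers summed to between 445 and 2775, the 5 endothelial markers to between 583 and 6889, and the 6 Purkinje cell and interneuron markers to between 448 and 3760 in every library. Of 5 red blood cell markers, 3 had no read in any library, and their sum was 7.31 to 128. The part of these cells in the members' changes was not tested.

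**Figure D3:**
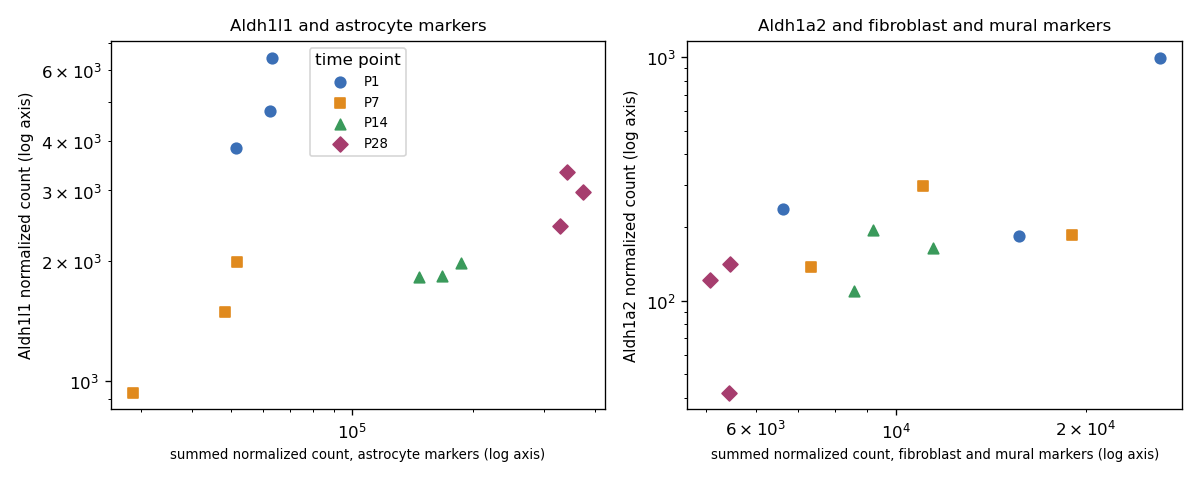
Left, Aldh1l1 normalized count (y axis) against the summed normalized count of 11 astrocyte markers (x axis); right, Aldh1a2 against 7 fibroblast and mural markers. Each symbol is 1 library, coloured by time point, and all axes are logarithmic; the P1 libraries have the highest Aldh1l1 at low marker sums, and replicate 2 of P1 stands at the top right for Aldh1a2 (994 and 26194).

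Aldh1l2 (chr10:83487450-83534140, minus strand), the mitochondrial counterpart of Aldh1l1, had normalized counts of 342, 364 and 404 at P1 and of 608, 547 and 619 at P7. They were 221, 163 and 170.5 at P14 and 49.7, 46.0 and 123 at P28. The libraries of the 4 time points did not overlap, in the order P7, P1, P14 and P28 from high to low.

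The rise of Aldh1l2 from P1 to P7 was not called (log2 fold change 0.68, SE 0.360, adjusted p = 0.345) in the fit of all ages, but was with only the 2 ages fitted (0.0179). It fell 3.21-fold from P7 to P14 (log2 fold change -1.68, adjusted p = 0.00385) and 2.77-fold from P14 to P28 (-1.47, adjusted p = 0.0157), and was 5.56-fold lower at P28 than at P1 (-2.47, SE 0.360, adjusted p = 1.21e-04). The step from P14 to P28 was lost without replicate 1 of P14 (adjusted p = 0.0598) and with only the 2 ages fitted (0.206). From P7 to P14 Aldh1l2 fell while the increase of Aldh1l1 was not called, and the difference between the genes was not tested. Of the exon bases of Aldh1l2, 14.1% are shared with D10Wsu102e on the other strand, whose means were 404, 531, 282 and 175 at the 4 ages. Whether the counting used strand is not given in the sources used here, so reads in the shared bases cannot be assigned to either gene.

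Of 24 other genes of folate and one-carbon metabolism, 22 were tested. In the successive steps 1, 4 and 1 of them fell and none rose, and 5 were lower at P28 than at P1, where none was higher. Of all genes tested, 4.24%, 10% and 8.76% were called as lower and 3.47%, 10.8% and 5.68% as higher in the steps. From P1 to P28, 20% of all genes were called as lower and 14.6% as higher. The list was not tested as a set against these shares. The list's median log2 fold change was -0.053, -0.54 and 0.22 in the steps. Mthfd1, a trifunctional enzyme that interconverts folate forms in the cytosol, had the highest level per length of the list, 13.5 RPKM (reads per kilobase of exon, scaled to the total reads on genes of the library) over the 12 libraries, followed by Ggh, a folylpolyglutamate hydrolase, at 11.1 RPKM. Mthfd1 fell from P1 to P7 with a log2 fold change of -0.93 (SE 0.266, adjusted p = 0.0475), a call that 7 of the 12 fits with a library left out did not keep, namely those without any replicate of P1 or P7 or replicate 1 of P14 (adjusted p 0.0558 to 0.188). Tyms, thymidylate synthase of DNA synthesis, fell from P7 to P14 with a log2 fold change of -3.23 (SE 0.483, adjusted p = 2.61e-04), from a mean of 261 to 27.7. Mthfd1l, which makes formate in mitochondria, had a log2 fold change of -4.10 from P14 to P28 (SE 1.16, adjusted p = 0.0305), but its P14 libraries ran from 64.5 to 648 and the call was lost without replicate 3 of P14 or of P28 (adjusted p 0.0707 to 0.143).

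The members that make retinoic acid had opposite signs from P1 to P28. Aldh1a1 (chr19:20492715-20643465, plus strand) had normalized counts of 124, 229 and 133 at P1 and of 366, 269.6 and 353 at P7. They were 2289.7, 2478 and 2651 at P14 and 7745, 6371 and 8045 at P28. The libraries of the 4 time points did not overlap, and each age was above the one before.

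Aldh1a1 rose 2.09-fold from P1 to P7 (log2 fold change 1.06, SE 0.230, adjusted p = 0.0103), 7.53-fold from P7 to P14 (2.91, adjusted p = 1.16e-06) and 2.98-fold from P14 to P28 (1.57, adjusted p = 9.05e-04). From P1 to P28 the rise was 46.9-fold (log2 fold change 5.55, SE 0.230, adjusted p = 7.35e-10). The calls of the later steps and of P1 to P28 held whichever library was left out, while that of P1 to P7 was lost without replicate 1 of P1 (adjusted p = 0.0569). The near-identical Aldh1a7 lies on the same chromosome (chr19:20692953-20727562, minus strand) and had means of 16.1, 3.49, 10.7 and 28.7, and how reads common to both were counted is not given in the sources used here.

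Aldh1a2 (chr9:71215789-71296243, plus strand) had normalized counts of 184, 994 and 239 at P1 and of 137, 186 and 295 at P7. They were 164, 110.0 and 194 at P14 and 142, 121 and 41.9 at P28. Replicate 2 of P1 was 5.40 times the lowest P1 library, and neighbouring ages overlapped throughout.

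None of the steps was called for Aldh1a2, with log2 fold changes of -0.84, -0.36 and -0.75 (SE 0.608, adjusted p = 0.541, 0.746 and 0.440). It was 3.89-fold lower at P28 than at P1 (log2 fold change -1.96, SE 0.608, adjusted p = 0.0224). That call was lost without replicate 2 of P1 (log2 fold change -1.21, adjusted p = 0.122) or replicate 3 of P28 (-1.42, adjusted p = 0.0784), and with only the 2 ages fitted (0.0856). In the meninges Aldh1a2 is a known source of retinoic acid, and 7 fibroblast and mural markers were read beside it. Their summed normalized count was 15697, 26194 and 6613 in the P1 libraries, and it lay between 7333 and 19048 at P7, 8586 and 11459.9 at P14, and 5071 and 5464 at P28, and all 7 had a read in every library. Replicate 2 of P1 held the highest sum, with normalized counts of 5518 for Dcn, 9899 for Col1a1 and 2231 for Slc6a13, a transporter of meningeal cells. Replicate 2 of P7, with Col1a1 at 9803 and a sum of 19048, had Aldh1a2 at 186. Replicate 1 of P1, with Col1a1 at 7461, had Aldh1a2 at 184. Replicate 2 of P1 also had a higher endothelial marker sum (2826) than replicates 1 and 3 of P1 (583 and 794). The part of any of these cells in the Aldh1a2 values was not tested.

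Among 22 other retinoid genes 18 were tested, of which none rose and 2 fell from P1 to P7, none rose and 1 fell from P7 to P14, and 2 rose and none fell from P14 to P28. At P28, 2 were higher and 5 lower than at P1. Of all genes tested, 3.47%, 10.8% and 5.68% were called as higher and 4.24%, 10% and 8.76% as lower in the steps. From P1 to P28, 14.6% of all genes were called as higher and 20% as lower. The list was not tested as a set against these shares. The list's median log2 fold changes in the steps were -0.57, -0.17 and 0.51. Cyp26b1, which degrades retinoic acid, had the highest level per length of the list, 23.0 RPKM over the 12 libraries, followed by the nuclear receptor Rxra at 12.8 RPKM. Cyp26b1 fell from P1 to P7 from a mean of 2506 to 433 (log2 fold change -2.47, SE 0.408, adjusted p = 0.00190). Crabp1, a cytosolic retinoic acid binding protein, had a mean of 135 at P7 and no read in any P14 or P28 library, and was at least 41.4-fold lower at P14 when each P14 library was given a floor of 3 reads. Rdh5, a retinol dehydrogenase, rose from P14 to P28 from a mean of 153 to 522 (log2 fold change 1.86, SE 0.465, adjusted p = 0.0172), a call lost without replicate 3 of P14 (adjusted p = 0.0691).

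Of the members for acetaldehyde and fatty aldehydes, Aldh2 (chr5:121566027-121593824, minus strand), the mitochondrial enzyme best known for oxidizing acetaldehyde, had normalized counts of 931, 1102 and 680.0 at P1 and of 379.8, 365 and 342 at P7. They were 1293, 1518 and 573 at P14 and 1836, 2117 and 2502 at P28. The P7 libraries were below and the P28 libraries above all others, while P1 and P14 overlapped because replicate 3 of P14 was low.

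Aldh2 fell 2.45-fold from P1 to P7 (log2 fold change -1.29, SE 0.303, adjusted p = 0.0171). It then rose 2.87-fold to P14 (1.52, adjusted p = 0.00239) and 2.05-fold to P28 (1.04, adjusted p = 0.0349), and ended 2.40-fold above P1 (1.27, adjusted p = 0.00524). The fall to P7 was lost without replicate 1 or 2 of P1 or replicate 2 or 3 of P7 (adjusted p 0.0536 to 0.0866). The rise from P14 to P28 was lost without replicate 3 of P14, where the log2 fold change was 0.61 (adjusted p = 0.122), and without replicate 2 or 3 of P28 (0.0573 and 0.0834). With library totals (adjusted p = 0.0803), in edgeR (0.0530) or with only the 2 ages fitted (0.153) it was not called either. Replicate 3 of P14 also had the lowest choroid plexus and ependymal marker sum at that age, 1097 against 63393 and 108853. Its astrocyte (146417) and red blood cell (28.2) marker sums were the lowest as well. Its oligodendrocyte lineage (353040), granule precursor and neuron (21579), Purkinje cell and interneuron (1028) and microglia (2775) sums were the highest of that age. The endothelial and the fibroblast and mural sums lay between those of the other replicates. The part of any of these cells in the result was not tested.

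Aldh3a2 (chr11:61223417-61267464, minus strand), the fatty aldehyde dehydrogenase of the endoplasmic reticulum, had normalized counts of 660.1, 670.2 and 661 at P1 and of 491, 372 and 405 at P7. They were 946, 1084 and 938 at P14 and 1054, 1077 and 801 at P28. The P7 libraries were the lowest, the P1 libraries came next, and P14 and P28 overlapped above them.

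Aldh3a2 rose 2.35-fold from P7 to P14 (log2 fold change 1.23, SE 0.191, adjusted p = 3.55e-04), and this call was kept with each library left out. Its fall from P1 to P7 was 1.58-fold (log2 fold change -0.66, adjusted p = 0.0491) and was lost without any one of the libraries of P1, P7 or P14 (adjusted p 0.0590 to 0.203), with library totals (0.0817), with TMM scaling (0.0572), without a filter (0.0554), with a replicate block (0.0646) and in edgeR (0.0699). From P14 to P28 it was not called (log2 fold change -0.028, adjusted p = 0.945). It was 1.46-fold above P1 at P28 (log2 fold change 0.54, adjusted p = 0.0396), which was lost without any replicate of P1, replicate 3 of P7 or replicate 1 or 2 of P28 (adjusted p 0.0563 to 0.0941) and with library totals, where the log2 fold change was 0.11 (0.681), and with only the 2 ages fitted (0.103). At the study's threshold neither its fall to P7 nor this last rise was called, as both were under a log2 fold change of 0.75.

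Of 15 genes of fatty aldehyde and aldehyde clearance, 14 were tested. None was called from P1 to P7, where the median log2 fold change was -0.37, whereas 5 rose and none fell from P7 to P14 (median 0.51) and 4 rose and 1 fell from P14 to P28 (median 0.81). At P28, 6 were higher and 1 lower than at P1. Of all genes tested, 3.47%, 10.8% and 5.68% were called as higher and 4.24%, 10% and 8.76% as lower in the steps. From P1 to P28, 14.6% of all genes were called as higher and 20% as lower. The list was not tested as a set against these shares. Cat, catalase, had the highest level per length of the list at 107 RPKM, and Gsta4, a glutathione transferase for lipid aldehydes, came next at 58.1 RPKM. Cbr3, a carbonyl reductase, rose from P7 to P14 from a mean of 32.0 to 119 (log2 fold change 1.89, SE 0.486, adjusted p = 0.0123), a call lost without replicate 2 of P7 (0.0616). Phyh, of peroxisomal alpha-oxidation, rose from P14 to P28 with a log2 fold change of 1.39 (SE 0.291, adjusted p = 0.00707). Far1, which makes fatty alcohols for ether lipids, fell in that step with a log2 fold change of -0.68 (SE 0.194, adjusted p = 0.0311), a call lost without replicate 3 of P7, any replicate of P14 or replicate 2 of P28 (adjusted p 0.0508 to 0.0752).

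The 4 members that act on aldehydes of amino acid and carnitine metabolism all had lower means at P7 than at P1 and higher means at P14 than at P7. Of these, 2 were called in the first step and 3 in the second, where 7.7% and 20.9% of all genes tested were called. Aldh7a1 (chr18:56509687-56572951, minus strand), which oxidizes alpha-aminoadipic semialdehyde in lysine breakdown, had normalized counts of 1013, 1122 and 703 at P1 and of 465, 359 and 375 at P7. They were 1293, 803 and 767 at P14 and 2110.2, 2000.4 and 2417 at P28. The P7 libraries were below all others, P1 and P14 overlapped, and the P28 libraries were above all others.

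Aldh7a1 fell 2.33-fold from P1 to P7 (log2 fold change -1.22, SE 0.236, adjusted p = 0.00512). It rose 2.33-fold from P7 to P14 (1.22, adjusted p = 0.00196) and 2.34-fold from P14 to P28 (1.23, adjusted p = 0.00463), to 2.34-fold above P1 (1.22, adjusted p = 0.00119). All 4 calls held with each of the 12 libraries left out in turn. Exon bases shared with Phax on the other strand were 5.79% of the total, and Phax had means of 730.3, 628, 467 and 659 at the 4 ages.

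Aldh6a1 (chr12:84430717-84451004, minus strand), the methylmalonate semialdehyde dehydrogenase of valine and thymine breakdown, had normalized counts of 639.8, 710.2 and 561 at P1 and of 357, 243 and 309 at P7. They were 633, 841 and 478 at P14 and 959, 1021 and 1398 at P28. As for Aldh7a1, P7 was below and P28 above all other libraries, and P1 and P14 overlapped.

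Aldh6a1 fell 2.11-fold from P1 to P7 (log2 fold change -1.08, SE 0.250, adjusted p = 0.0157), rose 2.11-fold to P14 (1.08, adjusted p = 0.00649) and rose 1.75-fold to P28 (0.81, adjusted p = 0.0435). It was 1.75-fold higher at P28 than at P1 (0.81, adjusted p = 0.0220). The rise from P7 to P14 held with each library left out. The fall to P7 was lost without replicate 1 or 2 of P1 or replicate 2 or 3 of P7 (adjusted p 0.0512 to 0.0821). The rise from P14 to P28 was lost without any replicate of P1, replicate 1 or 3 of P7, replicate 1 or 3 of P14 or replicate 3 of P28 (0.0517 to 0.165), with library totals (0.118), in edgeR (0.0564), with a replicate block (0.0617), with only the 2 ages fitted (0.138) and without a filter (0.0558). The net rise from P1 was lost without replicate 1 or 3 of P1 or replicate 3 of P28 (0.0576 to 0.0808) and with library totals (0.224). Bbof1, on the other strand, shares 18.6% of the exon bases of Aldh6a1.

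Aldh4a1 (chr4:139622866-139649690, plus strand), which turns glutamate semialdehyde into glutamate in proline breakdown, had normalized counts of 459, 444 and 336 at P1 and of 192, 217 and 209 at P7. They were 348, 258 and 233 at P14 and 380.0, 261 and 780.3 at P28. The P7 libraries were below all others, and replicate 3 of P28 stood well above the other two of its age.

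None of the comparisons was called for Aldh4a1 in the fit of all 12 libraries. The log2 fold changes were -0.99 from P1 to P7 (SE 0.350, adjusted p = 0.115), 0.42 from P7 to P14 (0.459), 0.63 from P14 to P28 (0.252) and 0.058 from P1 to P28 (0.913). Without replicate 2 or 3 of P28, which enter the first step through the shared estimate of the spread, the fall to P7 was called (adjusted p = 0.0494 and 0.0277), as it was with only the 2 ages fitted (0.00858) and at the study's threshold of an unadjusted p under 0.05 with a log2 fold change over 0.75. The sign from P1 to P28 turned to -0.38 without replicate 3 of P28, to -0.083 without replicate 3 of P1 and to -0.38 with library totals. Of the exon bases of Aldh4a1, 32.5% are also annotated to Gm21969 on the same strand. Gm21969 has no entry under that symbol among the counted genes, and how reads in the shared bases were counted is not given in the sources used here.

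Aldh9a1 (chr1:167349991-167368532, plus strand), which oxidizes trimethylaminobutyraldehyde on the way to carnitine, had normalized counts of 525, 724 and 351 at P1 and of 279, 262 and 303 at P7. They were 653, 443 and 539 at P14 and 468, 855 and 446 at P28. The P7 libraries were again below all others, and the other ages overlapped.

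In the fit of all 12 libraries Aldh9a1 was called in 1 comparison, the 1.91-fold rise from P7 to P14 (log2 fold change 0.94, SE 0.308, adjusted p = 0.0435). That call was lost without replicate 1 of P1 or any replicate of P7 or P14 (adjusted p 0.0550 to 0.149), with library totals (0.126) and without a filter (0.0526). The log2 fold changes were -0.86 from P1 to P7 (adjusted p = 0.118), 0.065 from P14 to P28 (0.916) and 0.14 from P1 to P28 (0.755). The fall from P1 to P7 was called with only the 2 ages fitted (0.0426) and at the study's unadjusted threshold. The values from P14 to P28 and from P1 to P28 both turned negative without replicate 2 of P28, at -0.24 and -0.16, and with library totals, at -0.17 and -0.30. The value from P14 to P28 was also negative without replicate 2 of P14 (-0.075), and that from P1 to P28 without replicate 3 of P1 (-0.13).

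The other genes of these pathways were counted in the same way, as lists for proline, valine, lysine and carnitine. Of all genes tested, 3.47%, 10.8% and 5.68% were called as higher and 4.24%, 10% and 8.76% as lower in the steps. From P1 to P28, 14.6% of all genes were called as higher and 20% as lower. None of these lists was tested as a set against these shares. Of 6 proline genes tested out of 7, 3 fell and none rose from P1 to P7, 3 rose and 1 fell from P7 to P14, and 3 rose and none fell from P14 to P28. Glud1, glutamate dehydrogenase, and Oat, ornithine aminotransferase, had the highest levels per length, 284 and 116 RPKM. Prodh, which starts proline breakdown, fell from a mean of 163 at P1 to 58.0 at P7 (log2 fold change -1.47, SE 0.306, adjusted p = 0.00812) and rose to 405 at P14 (2.81, adjusted p = 1.75e-05). The proline synthesis gene Pycr1 fell from 51.2 at P7 to 1.06 at P14 (log2 fold change -4.69, SE 1.03, adjusted p = 0.00470), where the fitted value depends on the pseudocount at so low a level, and its relative Pycrl had means of 51.0 at P14 and 297 ± 259 (SD, n = 3) at P28 (log2 fold change 2.25, SE 0.663, adjusted p = 0.0363). The call of Pycrl was lost without replicate 1 of P1, replicate 1 or 3 of P7, replicate 1 or 3 of P14 or replicate 2 or 3 of P28 (adjusted p 0.0514 to 0.134).

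All 14 valine genes were tested, and none of them was called from P1 to P7 (median log2 fold change -0.14), while 3 rose and none fell in each of the next steps (medians 0.39 and 0.59) and 7 were higher and none lower at P28 than at P1. Abat, GABA transaminase, had the highest level per length, 39.1 RPKM, followed by Mcee, methylmalonyl-CoA epimerase, at 18.9 RPKM. Mut, methylmalonyl-CoA mutase, rose from P14 to P28 with a log2 fold change of 1.14 (SE 0.230, adjusted p = 0.00595). Mcee rose from P7 to P14 with a log2 fold change of 1.35 (SE 0.444, adjusted p = 0.0444), a call lost without replicate 1 of P1, replicate 1 or 2 of P7 or replicate 1 or 2 of P14 (adjusted p 0.0591 to 0.188).

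Of 6 lysine genes, 2 fell and none rose from P1 to P7, and 1 rose and none fell in each of the next steps. Gcdh, glutaryl-CoA dehydrogenase, and Dhtkd1, of the 2-oxoadipate dehydrogenase complex, had the highest levels per length, 8.32 and 4.27 RPKM. Crym, a ketimine reductase, had means of 162 at P1 and 10.3 at P7 (log2 fold change -3.89, SE 0.954, adjusted p = 0.0217), and its call was lost without any replicate of P1 or replicate 2 or 3 of P7 (adjusted p 0.0539 to 0.0920). Pipox, pipecolic acid oxidase, had a log2 fold change of 1.73 from P7 to P14 (SE 0.567, adjusted p = 0.0426), which 8 of 12 fits did not keep, those without any replicate of P1 or P14 or replicate 1 or 2 of P7 (0.0566 to 0.173). Aass, the first enzyme of the main lysine route, had means of 22.8 at P14 and 135 at P28 (log2 fold change 2.42, SE 0.672, adjusted p = 0.0278), a call lost without any replicate of P14 or replicate 3 of P28 (0.0512 to 0.0737).

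Of 5 carnitine genes tested out of 6, 2 fell and none rose from P1 to P7, 3 rose and none fell from P7 to P14, and 1 rose and none fell from P14 to P28. Crat, carnitine acetyltransferase, and Cpt2, which loads fatty acids onto coenzyme A in mitochondria, had the highest levels per length, 14.5 and 12.9 RPKM. Bbox1, the last enzyme of carnitine synthesis, fell from P1 to P7 (log2 fold change -1.51, SE 0.422, adjusted p = 0.0416) and rose from P7 to P14 (1.38, adjusted p = 0.0311). Its fall was lost without any replicate of P1, replicate 2 or 3 of P7 or replicate 1 or 2 of P14 (adjusted p 0.0541 to 0.208), and its rise without replicate 2 or 3 of P7 or replicate 1 or 2 of P14 (0.0795 to 0.119). Crat rose from P14 to P28 with a log2 fold change of 0.75 (SE 0.232, adjusted p = 0.0426), which was lost in 8 of 12 fits, those without any replicate of P1, replicate 1 or 2 of P7, replicate 1 or 3 of P14 or replicate 3 of P28 (0.0520 to 0.143). At least 1 of the settings other than leaving out a library also ended a call named above for Aass, Bbox1, Crat, Crym, Far1, Mcee, Mthfd1, Mthfd1l, Pipox, Pycrl and Rdh5, while those of Tyms, Cyp26b1, Crabp1, Cbr3, Phyh, Prodh, Pycr1 and Mut held under each of them in which the gene was tested.

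Levels of different members were compared per length, as RPKM on the merged exons of GENCODE M21. The authors counted reads against transcripts from UCSC. Comparisons of level between genes, here and in the lists above, therefore depend on this choice of length, and no other was tried. At P1 Aldh1l1 was at 123 ± 30.6 RPKM (SD, n = 3) and made up 50.0 ± 8.83% of the summed level of the 10 members, and the next member by its mean, Aldh1a2, was at 23.1 ± 21.7 RPKM. That place rested on replicate 2, as the Aldh1a2 libraries were at 8.96, 48.1 and 12.1 RPKM, against means of 20.3 RPKM for Aldh7a1 and 19.6 RPKM for Aldh2. At P7 Aldh1l1 was still first, at 37.7 ± 13.0 RPKM and 33.1 ± 7.02% of the sum, and the other 9 lay between 4.89 and 10.5 RPKM. The sum of the mean levels was 248 RPKM at P1 and 112 RPKM at P7.

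With these lengths, Aldh1a1 at P14, at 48.7 ± 3.27 RPKM, was above Aldh1l1, at 40.4 ± 1.41 RPKM, and the libraries of the genes did not overlap. At P28 Aldh1a1 was at 123 ± 14.9 RPKM and 40.7 ± 4.23% of the sum, and Aldh1l1 was at 53.3 ± 7.27 RPKM and 17.6 ± 2.78%. Aldh1a1 had been the lowest member at P1, with 3.65 ± 1.25 RPKM and 1.48 ± 0.400% of the sum. Aldh7a1 and Aldh2 followed at P28, at 34.6 and 34.5 RPKM, while Aldh1l2 was the lowest at 0.791 ± 0.441 RPKM. The sum of the mean levels was 187 RPKM at P14 and 303 RPKM at P28.

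**Figure D4:**
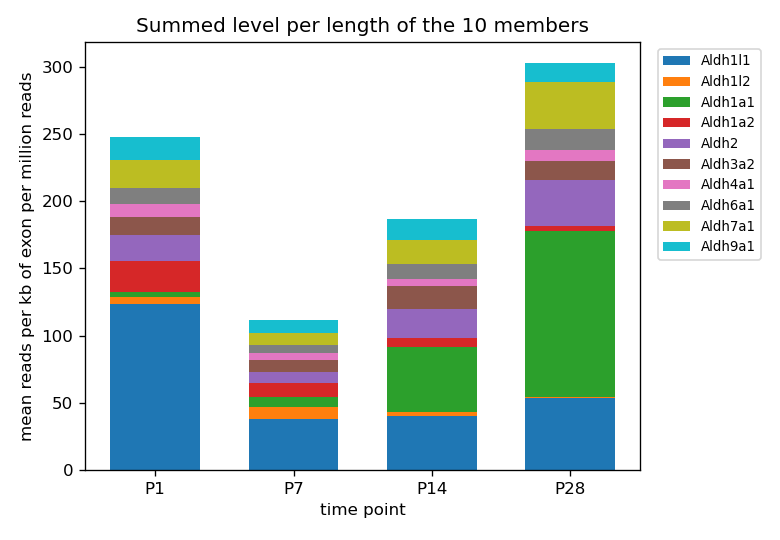
Mean level of each member in RPKM (y axis), stacked at each time point (x axis), with 3 libraries per bar. Aldh1l1 is the largest block at P1 (123) and Aldh1a1 at P28 (123), and the stack is lowest at P7 (112).

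The genes whose time course lay closest to that of a member were found by the root mean square (RMS) difference of centred log2 values over the 12 libraries, among tested genes with a mean of at least 100. For Aldh1l1 they were Lrp4 (RMS 0.211), Phgdh (0.249), the first enzyme of serine synthesis, and Sox6 (0.250), a transcription factor. Phgdh had mean normalized counts of 2393, 942, 953 and 1917 at the 4 ages. For Aldh1l2 they were Tbc1d4 (0.294), Trp53 (0.295) and Mpped2 (0.331), and for Aldh1a1 Frrs1l (0.233), Sowaha (0.276) and Car10 (0.378). The closest to Aldh1a1, Frrs1l, went from 183 at P1 through 449.6 and 3142 to 8620.2 at P28.

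For Aldh2 the closest genes were Dpy19l3 (RMS 0.257), Scd3 (0.284) and Suox (0.292), with Aldh7a1 in place 6 (0.314) and Aldh6a1 in place 13 (0.331). For Aldh7a1 they were Oat (0.239), a gene of the proline list above, Myo6 (0.245) and Zcchc24 (0.265). The closest to Aldh6a1 were Mras (0.125), Glo1 (0.171), which detoxifies methylglyoxal, and Tmbim6 (0.172), and to Aldh3a2 Sik3 (0.153), Cluh (0.191) and Bmp1 (0.197). These are descriptions over libraries that share their time points and cell composition.

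Of the 11 other Aldh genes, 6 passed the filter. Aldh5a1, succinic semialdehyde dehydrogenase of GABA breakdown, had normalized counts of 1239.7, 826 and 931 at P1 and of 547, 351 and 501 at P7. They were 1227, 1351 and 1138 at P14 and 2183, 1458 and 2403 at P28. Its P7 libraries were the lowest and its P28 libraries the highest, and P1 and P14 overlapped, in the same order of means as Aldh2, Aldh6a1, Aldh7a1 and Aldh9a1.

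Aldh5a1 fell from P1 to P7 with a log2 fold change of -1.10 (SE 0.235, adjusted p = 0.00944), a call lost without replicate 1 of P1 (0.0596) or replicate 2 of P7 (0.0536). It rose from P7 to P14 (1.43, adjusted p = 5.71e-04), while the step to P28 was not called (0.67, adjusted p = 0.0710) but was so without replicate 2 of P28 (0.0208) and in DESeq2 (0.0392). It was 2.00-fold higher at P28 than at P1 (1.00, adjusted p = 0.00465), a call lost with library totals, where the log2 fold change was 0.57 (0.0610).

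Aldh18a1, which starts proline synthesis, had normalized counts of 622, 246 and 481 at P1 and of 494, 403 and 474 at P7. They were 115, 237 and 122 at P14 and 215, 43.6 and 47.3 at P28. It was 5.42-fold lower at P28 than at P1 (log2 fold change -2.44, SE 0.546, adjusted p = 0.00339), and its step from P7 to P14 stood at the threshold (-1.60, adjusted p = 0.0508), called without replicate 2 of P1, replicate 2 of P14 or any replicate of P28 (0.00806 to 0.0490). That step was also called with library totals (0.0248), a pseudocount of 10 (0.0397), only the 2 ages fitted (0.00317), a minimum of 10 reads per library (0.0391), a replicate block (0.0474) and DESeq2 (0.0283), and at the study's unadjusted threshold. The step from P14 to P28 was not called (-0.96, adjusted p = 0.261) except without replicate 1 of P28 (0.0167).

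Aldh1b1, a mitochondrial relative of Aldh2, had normalized counts of 50.4, 11.4 and 43.2 at P1 and of 79.6, 64.1 and 99.2 at P7, and no read in any of the 6 libraries of P14 and P28. With a floor of 3 reads per library it was lower by at least 24.9-fold at P14 compared with P7 (adjusted p = 4.41e-05) and by at least 7.99-fold at P28 compared with P1 (adjusted p = 2.19e-04). Aldh2 itself was highest at P28. Aldh16a1, Aldh3b1 and Aldh1a7 were not called by limma with the settings above in any comparison and had mean normalized counts under 100 at every age. Other settings changed this. Aldh3b1 from P7 to P14 (log2 fold change 2.12, adjusted p = 0.0747) was called without replicate 2 or 3 of P28 (0.0330 and 0.0367), in DESeq2 (0.0151), with a pseudocount of 10 (0.0435) and with only the 2 ages fitted (0.0252). Aldh16a1 from P14 to P28 (-1.74, adjusted p = 0.0735) was called without replicate 1 of P28 (0.0435), in DESeq2 (0.0125), with library totals (0.0453) and with at least 10 reads required in every library (0.0345). At the study's threshold, an unadjusted p under 0.05 with a log2 fold change over 0.75, both of these and Aldh1a7 from P1 to P7 (-1.99, adjusted p = 0.135) were also called. The remaining 5 genes, Aldh1a3, Aldh3a1, Aldh3b2, Aldh3b3 and Aldh8a1, did not pass the filter, and their highest value in any library was 14.1.

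**Figure D5:**
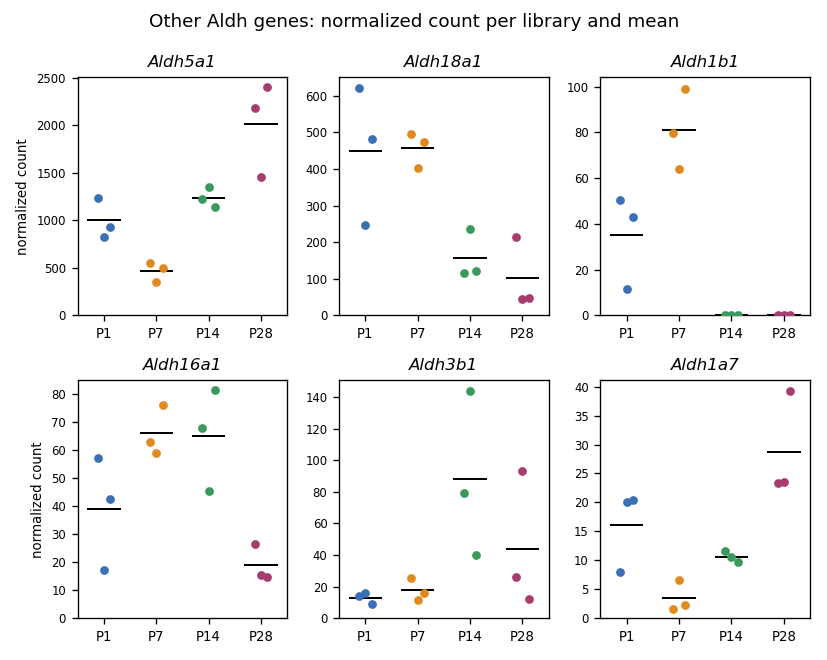
Normalized count (y axis, linear, its own scale in each panel) of 6 other Aldh genes at P1, P7, P14 and P28 (x axis). Each point is 1 library and each bar the mean of 3; Aldh5a1 is lowest at P7, Aldh18a1 is low from P14 on, and Aldh1b1 is at 0 at P14 and P28.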

How the data were processed

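Cells positive for GFP were sorted from the cerebellum of Aldh1l1-GFP mice at 4 ages, with 3 libraries each. The libraries were made with the Trio RNA-Seq kit and sequenced as paired ends. According to the study's methods and the submitters' processing notes, the authors aligned reads to mm10 with STAR (2.5.0a), counted them per gene against transcripts from UCSC, and scaled the libraries in DESeq2 (1.30.1 in the notes). The deposited unit is a signal, namely normalized counts that the authors obtained by dividing each library by 1 size factor. Dividing by the step between low values gave whole reads for 100% of values (within 0.001), and these served for depth, RPKM, floors and the count tests. All 12 columns were matched by the names in the labels.

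The main test was limma (3.58.1, R 4.3.3) with a variance trend on log2(value + 1), over genes that reached a value of 10 in 3 or more libraries. A chi-square per degree of freedom of 9.92 to 76.3 between libraries of an age showed no library entered more than once within an age. Libraries of different ages were not compared in this way. Tested on simulated data for P1 to P7, where 200 of 15375 genes were given a log2 fold change of 2, 141 were recovered by limma with 5 false calls. The simulation gave all genes the same relative spread beyond counting error and changed no others, so these rates may not hold for the data. The alternatives were library totals, TMM, edgeR (4.0.16), DESeq2 (1.42.0), other pseudocounts and filters, only the ages compared, a replicate block, the study's threshold and each library left out. Floors of 3 reads (95% confidence) cover counting error only.

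Members and lists were chosen with earlier results of these data known. Named were all members, the other Aldh genes that passed the filter, in each pathway list the 2 genes of highest level per length and the largest called rise and fall per step, and the 3 genes nearest in time course to Aldh1l1 and to each member called in at least 2 steps. Annotation was GENCODE M21 (GRCm38), and start sites were from RefSeq. Treatment of reads shared between genes and use of strand are not given in the sources used here.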

Additional observations from a re-analysis of the deposited data

How the results depend on the processing

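Alternatives were compared over the 40 member results, each with 12 fits that leave out a library and 11 other settings. Of the fits without a library, 419 gave the same direction and side of the threshold, 51 lost a call, 2 gained one and 8 changed sign. Of the other settings, 410 gave the same, 22 lost a call, 5 gained one and 3 changed sign. The number of members called from P1 to P7 was 6 and ranged from 2 to 7 with a library left out, with 2 without replicate 1 of P1 and 3 without replicate 2 of P1 or replicate 2 or 3 of P7, and from 5 to 9 under the other settings, with 9 when only the 2 ages were compared. From P7 to P14 it was 7, with a range of 6 to 7. From P14 to P28 it was 5, with a range of 3 to 5 (3 without replicate 1 or 3 of P14 or replicate 3 of P28), 3 with library totals, 3 in edgeR and 2 with only the 2 ages compared. From P1 to P28 it was 8, with a range of 5 to 8 (5 without replicate 1 or 2 of P1). Fewer samples enter the fits with a library or an age left out; the cause of the other differences was not tested. Signs changed with library totals for Aldh4a1 from P1 to P28 (-0.38) and Aldh9a1 from P14 to P28 (-0.17) and from P1 to P28 (-0.30), and in edgeR for Aldh16a1 from P7 to P14 (0.0018). With a library left out, the log2 fold change ranged from -0.10 to 0.11 for Aldh3a2 from P14 to P28, from -0.38 to 0.41 for Aldh4a1 and from -0.16 to 0.39 for Aldh9a1 from P1 to P28, from -0.24 to 0.23 for Aldh9a1 from P14 to P28, from -0.23 to 0.18 for Aldh16a1 from P7 to P14 and from -0.26 to 0.40 for Aldh18a1 from P1 to P7, none of them called. With the replicate number as a block, 5 members were called from P1 to P7 and 4 from P14 to P28, as Aldh3a2 (adjusted p = 0.0646) and Aldh6a1 (0.0617) were lost. Libraries of the same number from different ages had correlations of -0.029 to 0.139 in their deviations from the group means over 18 pairs, 1 of them over 0.1. Weak correlations with so few libraries per age cannot decide whether the number pairs the libraries. At this depth a gene with no reads is limited only to 3 reads per library, a normalized count of 1.85 to 4.38.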
